A study of Mus musculus with 292 samples.

Results

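The genes examined here mark the spiny projection neurons of the striatum, the input nucleus of the basal ganglia. They are Tac1 and Pdyn of the direct pathway, Drd2 and Penk of the indirect pathway, and Rgs9 and Ppp1r1b, which both pathways share. They were taken by name: every probe annotated to Drd2, Rgs9, Tac1 or Ppp1r1b, and every probe of Drd1, Adora2a, Penk and Pdyn where there was one. The genes had been proposed for their levels by mouse-number block in these same data. The block tests below are therefore no independent support for a difference. This gave 6 probes, 1 for each of 6 of the 8 genes, out of 23574 probes and 10835 named genes in the table. Drd1, the dopamine receptor of the direct pathway, and Adora2a, the adenosine receptor of the indirect pathway, were not analysed here.

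The samples were brains of 292 F2 mice, each hybridised once on a 2-colour array against a common pool. F1 animals between 2 inbred strains, C57BL/6J and C3H/HeJ, were crossed to each other, in both orders of the cross, to give female and male F2 mice. Every mouse ate chow (4% fat) up to 8 weeks of age. A Western diet followed for 12 weeks, in which fat made up 42% and cholesterol 0.15%, and death came at 20 weeks after 12 h without food. No mouse carried a treatment that another lacked, and the labels give no single mouse a cross direction. Each description holds the word female, spelled Female or female, and this word is not taken here as the sex. The labels divide the arrays by mouse number and by a spelling in the description. The sets are 141 mice numbered 213 to 362 and 151 mice numbered 51 to 212, and the lower numbers hold 77 arrays whose description spells Female and 74 that spell female. Neither division is a treatment. The labels say brain without naming the regions that were dissected, and a ratio to a pool holds no absolute level, so the presence of striatum in a sample could not be checked from these genes.

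Spiny projection neurons make up most of the striatum and receive dopamine from the midbrain. Those of the direct pathway project to the output nuclei of the basal ganglia and carry the D1 receptor, substance P (from Tac1) and dynorphin (from Pdyn), and their activity promotes movement. Those of the indirect pathway project to the external pallidum and carry the D2 receptor (Drd2), an adenosine receptor (Adora2a) and enkephalin (from Penk), and their activity restrains movement. Rgs9 encodes a regulator that speeds the return of G proteins to rest behind the D2 and opioid receptors, and Ppp1r1b encodes DARPP-32, a phosphatase inhibitor switched by protein kinase A. None of these genes is silent elsewhere: Tac1, Pdyn and Penk are also made by neurons of the cortex, hippocampus and hypothalamus, and Drd2 by midbrain dopamine neurons and the pituitary.

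Of Tac1, Pdyn, Drd2 and Penk, Tac1 and Drd2 differed most between the mouse-number sets, in opposite directions, so the 250 bases before their start sites are shown. They come from RefSeq on GRCm38.p6, which held entries for 4 of the 6 genes (Tac1, Pdyn, Drd2 and Rgs9). Capitals mark CGTCA, the core of a cAMP response element, and GGGCGG, a GC box, searched on both strands.

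Tac1, chr6:7554811-7555060, plus strand: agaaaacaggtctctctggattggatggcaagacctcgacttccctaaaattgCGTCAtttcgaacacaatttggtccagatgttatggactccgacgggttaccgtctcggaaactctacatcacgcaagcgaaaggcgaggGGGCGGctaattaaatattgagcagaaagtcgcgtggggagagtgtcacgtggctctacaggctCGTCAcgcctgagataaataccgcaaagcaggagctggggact

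Drd2, chr9:49340153-49340402, plus strand: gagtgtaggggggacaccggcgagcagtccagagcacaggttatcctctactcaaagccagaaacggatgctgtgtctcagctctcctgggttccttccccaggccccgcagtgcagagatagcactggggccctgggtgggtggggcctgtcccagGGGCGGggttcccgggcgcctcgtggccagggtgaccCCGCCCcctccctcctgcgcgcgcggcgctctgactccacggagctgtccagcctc

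The Tac1 window held CGTCA 2 times and GGGCGG 1 time, and the Drd2 window held GGGCGG 2 times and CGTCA 0 times. CGTCA occurred in 17.8% and GGGCGG in 32.7% of 32851 mouse promoters of this length, and the full palindrome TGACGTCA, which contains CGTCA, occurred in 1.55% of them and in neither window. The GC content was 51.2% in the Tac1 window, close to the median of 52.4% over all promoters, and 68.8% in the Drd2 window, higher than in 89% of promoters. A match describes letters and shows neither binding nor a cause.

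Every value below is a log10 ratio of the mouse to the pool, so 0 stands for the level of the pool. The direction of the ratio is not stated. Mouse over pool is likely, because the labels describe the pool as equal portions of all samples, and the mean linear ratio of the Y-linked gene Eif2s3y over all mice was 0.79 as deposited but 21.6 with the sign turned. As deposited it was 0.58 in mice 213 to 362 and 0.987 in mice 51 to 212. With the sign turned, each difference below would keep its size and take the opposite sign, and each correlation between genes would stay as it is. Between pairs of arrays the median r was 0.109, the lowest -0.638 and the highest 0.795, and 3.39% of these pairs had an r under -0.3. The median array had an SD over probes of 0.068, and 3 arrays, all of mice 213 to 362, had an SD of over 2 times that. The sets also differ in handling that the labels do not describe: 17 probes were missing on every array spelled Female, 19 on every array spelled female and 0 on every array of mice 213 to 362. Mouse number and array handling cannot be told apart between the blocks. Eif2s3y lay under -0.7 in 46.1% of mice 213 to 362, in 1.3% of the mice spelled Female and in 98.6% of the mice spelled female. The comparison of spellings thus also divides the mice by this Y-linked gene, and so likely by sex. With mouse over pool, the mice spelled Female are likely mostly male and those spelled female mostly female. Mice 213 to 362 likely hold both sexes, and sex was not modelled among them.

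Drd2, Penk, Pdyn, Tac1 and Rgs9 were each fitted best by a single component over all mice, and Ppp1r1b came out as 2 clusters by a narrow margin. Their means lay 3.01 within-cluster SDs apart, where 3 was the limit, and the smaller cluster held 18.7% of the mice. Within none of the 3 sets did any of the 6 genes form clusters. The middle 90% of all mice spanned 1.77-fold in Ppp1r1b, 1.6-fold in Drd2, 1.42-fold in Tac1, 1.39-fold in Rgs9, 1.38-fold in Penk and 1.22-fold in Pdyn. The SD of Ppp1r1b over mice was larger than that of 80.3% of probes, and the SD of Pdyn was larger than that of 5.74%.

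Between the number blocks, Ppp1r1b and Drd2 fell and Tac1 rose in mice 213 to 362, by 1.12-fold to 1.22-fold, while Penk and Rgs9 did not pass the test and Pdyn fell by 1.03-fold. The larger changes came to 1.42, 1.05 and 1.2 pooled SDs for Ppp1r1b, Drd2 and Tac1. Those of Ppp1r1b and Tac1 exceeded the SD of either block, while that of Drd2 was above the SD of mice 213 to 362 and just under that of mice 51 to 212. A difference between blocks was common in these arrays: limma called 66.7% of 23549 probes at an adjusted p under 0.05, with 30.5% higher and 36.1% lower. So 4 of 6 genes called is close to what the table gave as a whole. At a difference of at least 1.1-fold as well, 23.8% of probes were called, with 12.5% higher and 11.3% lower, against 3 of the 6 genes. Because the genes were proposed for their block levels, neither count is independent of that choice. In RNA of brain tissue, fewer cells of a type and less RNA per cell cannot be told apart.

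Of the direct pathway genes, Tac1 encodes the precursor of substance P. Its log10 ratio ran from -0.0599 over a median of 0.0538 to 0.15 in mice 213 to 362, and from -0.145 over 0.00408 to 0.116 in mice 51 to 212. The blocks overlapped, but 126 of 141 mice of the upper block lay above the median of the lower one. The mean was 0.0505 ± 0.038 in mice 213 to 362 (SD, n = 141) and 0.00139 ± 0.0437 in mice 51 to 212 (SD, n = 151). The difference of 0.0491 had an SE of 0.00481 and amounts to 1.12-fold (limma, adjusted p = 3.26e-20), a larger difference than that of 81.3% of probes. Pdyn, the dynorphin precursor, had a median of -0.00929 in mice 213 to 362, with a range of -0.0815 to 0.06, and a median of 0.00453 in mice 51 to 212, with a range of -0.0613 to 0.075. It fell by 0.0115 ± 0.00305 (SE), or 1.03-fold, at an adjusted p of 4.22e-04 by limma, and 33.5% of probes differed by less. Tac1 and Pdyn, the pair of direct pathway genes, thus passed the test in opposite directions.

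Of the indirect pathway genes, Drd2 encodes the D2 dopamine receptor. It ran from -0.191 over a median of -0.0722 to 0.0734 in mice 213 to 362, and from -0.15 over -0.0014 to 0.198 in mice 51 to 212. In the upper block 121 of 141 mice lay below the median of the lower block. The mean was -0.0591 ± 0.0497 in mice 213 to 362 (SD, n = 141) and 7.25e-04 ± 0.0627 in mice 51 to 212 (SD, n = 151), so it fell by 0.0598 with an SE of 0.00663, or 1.15-fold (limma, adjusted p = 1.63e-16). That difference was larger than in 87% of probes. Penk, the enkephalin precursor, is set beside Drd2 as the other marker of these neurons. Its median was -0.0125 in mice 213 to 362, from -0.154 to 0.0917, and -0.005 in mice 51 to 212, from -0.124 to 0.106. The difference of -0.00354 ± 0.00498 (SE) did not pass the test (limma, adjusted p = 0.543), and only 11.2% of probes differed by less.

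Of the genes of both pathways, Ppp1r1b differed most. It ran from -0.178 over a median of -0.0966 to 0.063 in mice 213 to 362, and from -0.199 over -0.0259 to 0.183 in mice 51 to 212. In the upper block 130 of 141 mice lay below the median of the lower block, and 0 lay outside its range. The mean was -0.0929 ± 0.046 in mice 213 to 362 (SD, n = 141) and -0.00751 ± 0.071 in mice 51 to 212 (SD, n = 151), so it fell by 0.0854 with an SE of 0.00703, or 1.22-fold (limma, adjusted p = 1.29e-26). Of all probes, 94.4% differed by less. Rgs9 had a median of 0.00465 in mice 213 to 362, from -0.106 to 0.176, and of -0.00397 in mice 51 to 212, from -0.146 to 0.119. Its difference of 0.00985 ± 0.00533 (SE) did not pass the test (limma, adjusted p = 0.0927). It passed with each array centred on its median (adjusted p = 0.0296) and against the arrays spelled Female alone (adjusted p = 0.0328).

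**Figure D1:**
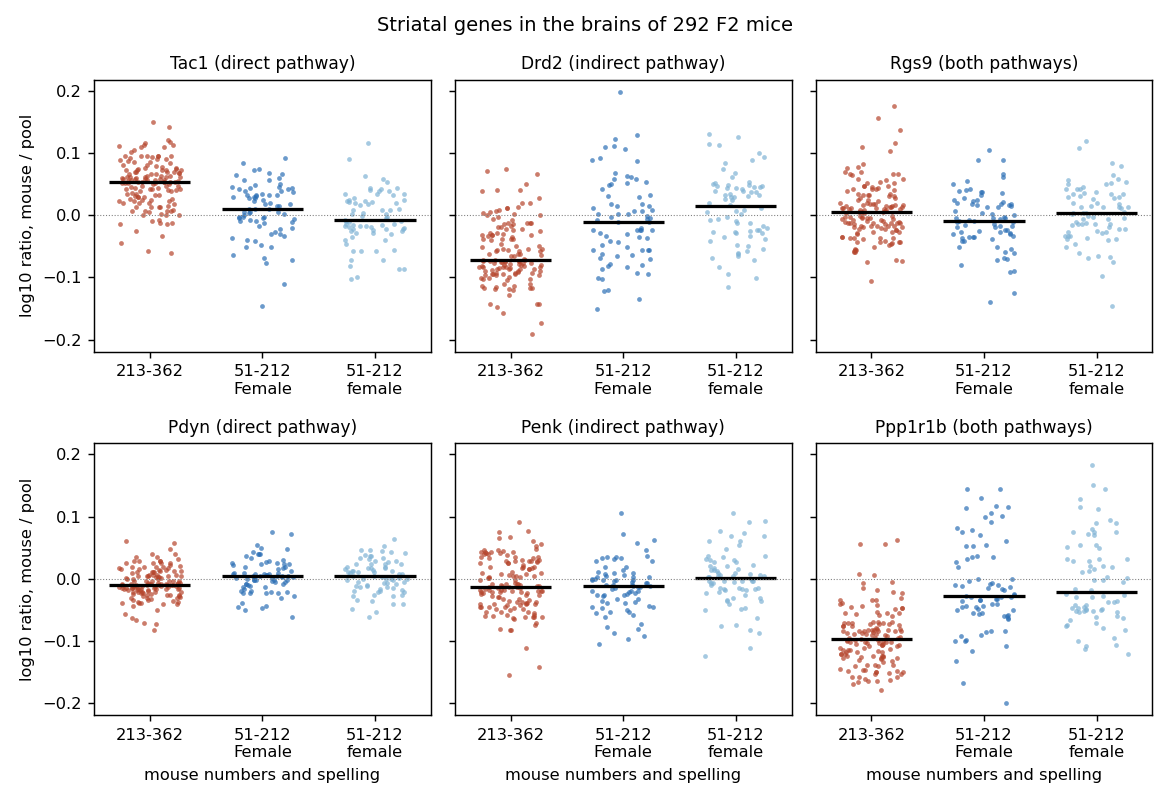
Log10 ratio of mouse to pool (vertical axis) for each gene, with 1 point a mouse, in mice 213 to 362 and in the sets of mice 51 to 212 spelled Female and female; black bars are medians. Drd2 and Ppp1r1b lie lower and Tac1 higher in mice 213 to 362, with medians of -0.0722, -0.0966 and 0.0538, while the ranges of the sets overlap in every gene.

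The mean linear ratio of a gene to a pool of equal portions would lie near 1 over all mice. It was 0.907 for Ppp1r1b, 0.948 for Drd2 and 1.07 for Tac1. In mice 213 to 362 these means were 0.812, 0.879 and 1.13 in that order, and in mice 51 to 212 they were 0.996, 1.01 and 1.01. By this mean, the departure from 1 thus lay in the upper block for all 3 genes. The median of Ppp1r1b in mice 51 to 212 was still -0.0259, and 93 of those 151 mice lay below 0.

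Within mice 51 to 212 the spelling of the description separated none of the 6 genes at an adjusted p under 0.05. The arrays spelled Female differed from those spelled female by 0.013 in Tac1, -0.0178 in Drd2, -0.0132 in Penk, -0.0109 in Rgs9, -0.00852 in Ppp1r1b and 2.07e-05 in Pdyn, at adjusted p-values of 0.697 to 0.999 by limma. At an unadjusted p under 0.05 the count was 0 as well in this fit, the lowest being 0.0561 for Penk. With array weights the unadjusted p was 0.00463 for Drd2 and 0.00766 for Tac1 (limma). With arrays scaled to equal spread it was 0.03 for Drd2 and 0.0276 for Tac1 (limma). In these versions Drd2 was lower and Tac1 higher in the arrays spelled Female, and the other genes stayed above 0.05. The lowest adjusted p was 0.142, for Drd2 with array weights (limma). Over the table, 252 probes or 1.07% were called in this comparison.

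Drd2, Penk, Tac1 and Pdyn were also read as pathway means. In each mouse the mean of Tac1 and Pdyn was set against the mean of Drd2 and Penk. The direct mean had a median of 0.0246 in mice 213 to 362 and 0.00549 in mice 51 to 212. The indirect mean had a median of -0.0333 in mice 213 to 362 and -0.00193 in mice 51 to 212. Direct minus indirect averaged 0.0561 ± 0.0398 in mice 213 to 362 (SD, n = 141) and was above 0 in 129 of them. In mice 51 to 212 it averaged 0.00558 ± 0.0473 (SD, n = 151) and was above 0 in 86 of them. Within these it averaged 0.0164 in the mice spelled Female, above 0 in 54 of 77. In those spelled female it averaged -0.00566 and was above 0 in 32 of 74. The block means differed by 0.0505, about the SD of the lower block, and no test was made of a score over chosen genes. The difference rested on Tac1 and Drd2: it was 0.0202 without Tac1 and 0.0223 without Drd2, against 0.0808 without Pdyn and 0.0786 without Penk.

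The step in this score was not sharp at the block boundary. In runs of mouse numbers whose limits were chosen after the values were seen, direct minus indirect averaged -0.00298 ± 0.0453 in mice 51 to 100 (SD, n = 46), -0.00456 ± 0.0414 in mice 101 to 150 (n = 48) and 0.00109 ± 0.0529 in mice 151 to 180 (n = 28). It averaged 0.0403 ± 0.0397 in mice 181 to 212 (n = 29), where 26 of 29 mice lay above 0. In the upper block it averaged 0.0511 in mice 213 to 250 (n = 37), 0.0621 in mice 251 to 300 (n = 46) and 0.0545 in mice 301 to 362 (n = 58). In this score, mice 181 to 212 thus lay nearer to the upper block than to the rest of their own. Of the 4 genes, Penk averaged -0.036 and was above 0 in 2 of those 29 mice, and Drd2 averaged -0.0298 and was above 0 in 7. Over the whole upper block Penk averaged only -0.00987 and Drd2 -0.0591. Tac1 averaged 0.017 in mice 181 to 212, against 0.0505 in the upper block, and Pdyn averaged -0.0023. Ppp1r1b, which is not in the score, moved within the lower block too. It averaged -0.0378 in mice 51 to 100, 0.019 in mice 101 to 150, 0.00604 in mice 151 to 180 and -0.0165 in mice 181 to 212. In the upper block it averaged -0.0918 in mice 213 to 250, -0.104 in mice 251 to 300 and -0.0846 in mice 301 to 362. Each of these runs lay below every run of the lower block.

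**Figure D2:**
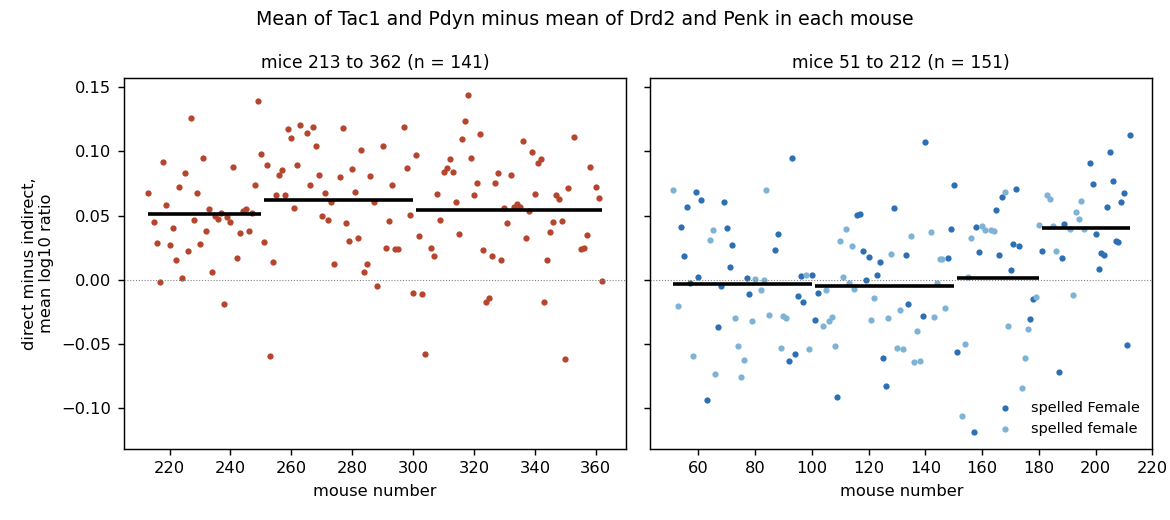
Mean log10 ratio of Tac1 and Pdyn minus that of Drd2 and Penk (vertical axis) for each mouse by its number, in mice 213 to 362 and in mice 51 to 212; black bars are means over runs of numbers. Most mice of the upper block lie above 0, and within the lower block mice 181 to 212 average 0.0403, against -0.00298 in mice 51 to 100.

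A slope over mouse number within the sets was called for 4248 probes, or 18%, with 8.8% rising. Of the 6 genes, Rgs9 rose by 0.0253 ± 0.00576 (SE) per 100 mouse numbers (limma, adjusted p = 3.43e-04) and Tac1 rose by 0.0167 ± 0.00526 (SE, adjusted p = 0.0145). The Rgs9 slope came from mice 213 to 362, where it was 0.0456 ± 0.00799 (SE, n = 141, limma adjusted p = 3.92e-06) and 11.4% of probes rose; it was 0.0148 in the mice spelled Female and -7.64e-05 in those spelled female. There, 10 of 37 mice numbered 213 to 250 and 43 of 58 mice numbered 301 to 362 had a Rgs9 ratio above 0. Penk did not pass over all sets (slope -0.0109, limma adjusted p = 0.16), and its slopes ran in opposite directions. The Penk slope was 0.0135 in mice 213 to 362, where it did not pass (limma, adjusted p = 0.226). It was -0.0293 in the mice spelled Female (limma, adjusted p = 0.00755) and -0.0326 in those spelled female (adjusted p = 0.0623). Fitted in 1 model, the slope of mice 213 to 362 exceeded that of mice 51 to 212 by 0.0441 ± 0.0108 in Penk (SE, limma adjusted p = 3.87e-04) and by 0.0365 ± 0.0114 in Rgs9 (SE, adjusted p = 0.00601), where 40.6% of all probes were called. The other 4 genes did not pass this test, with adjusted p-values of 0.212 for Ppp1r1b, 0.479 for Drd2, 0.838 for Tac1 and 0.848 for Pdyn.

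The wider lists of striatal genes did not shift as 1 group between the blocks. Of 31 measured genes shared by the spiny neurons, 7 rose, 15 fell and 9 did not pass the test in mice 213 to 362, with a median difference of -0.00853; over all 10835 named genes 29.8% rose and 38.7% fell. Beside Ppp1r1b, the largest differences in this list were -0.0824 in Bcl11b, a transcription factor of spiny neuron development, -0.0717 in Itpka, an inositol phosphate kinase, and -0.0695 in Pde10a, a striatal phosphodiesterase, and all 3 fell. Genes that rose included Foxp1, a transcription factor of these neurons, by 0.049, and Actn2, an actin cross-linker, by 0.0451, both named after their values were seen.

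Of 6 measured direct pathway genes, 3 rose, 1 fell and 2 did not pass, with a median of 0.0101. Sfxn1, a mitochondrial serine carrier, rose by 0.0743, ahead of Tac1. Eya1, named here only to complete the count, rose by 0.00948, and Ebf1, a transcription factor of direct pathway neurons, differed by 0.0107 at an adjusted p of 0.0706 (limma). Of 6 measured indirect pathway genes, 2 rose, 2 fell and 2 did not pass, with a median of -0.00131. Sp9, a transcription factor needed by indirect pathway neurons, fell by 0.0482 beside Drd2, while Upb1, a pyrimidine enzyme, rose by 0.0405 and Gpr6, an orphan receptor of these neurons, rose by 0.0151. Neither pathway list moved in a single direction.

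Among 17 receptors, opioid precursors and signalling partners, 3 rose, 6 fell and 8 did not pass, with a median of -0.00354. Prkaca and Prkar1b, a catalytic and a regulatory subunit of protein kinase A, fell by 0.0375 and 0.034, and Gnai1, an inhibitory G protein, fell by 0.0271. Oprk1, the receptor for dynorphin, rose by 0.0353. The other risers, named to complete the count, were Oprd1, a receptor for enkephalin, by 0.0152, and Crem, a cAMP responsive transcription factor, by 0.0139. Of 10 measured genes of midbrain dopamine neurons, 3 rose and 7 fell, with a median of -0.0193. Aldh1a1, a retinal dehydrogenase, rose by 0.11 and Th, the rate-limiting enzyme of dopamine synthesis, by 0.0567, while En1 and Nr4a2, transcription factors of these neurons, fell by 0.0771 and 0.0601. Ddc, which makes dopamine from its precursor, was the remaining riser, by 0.0277.

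**Figure D3:**
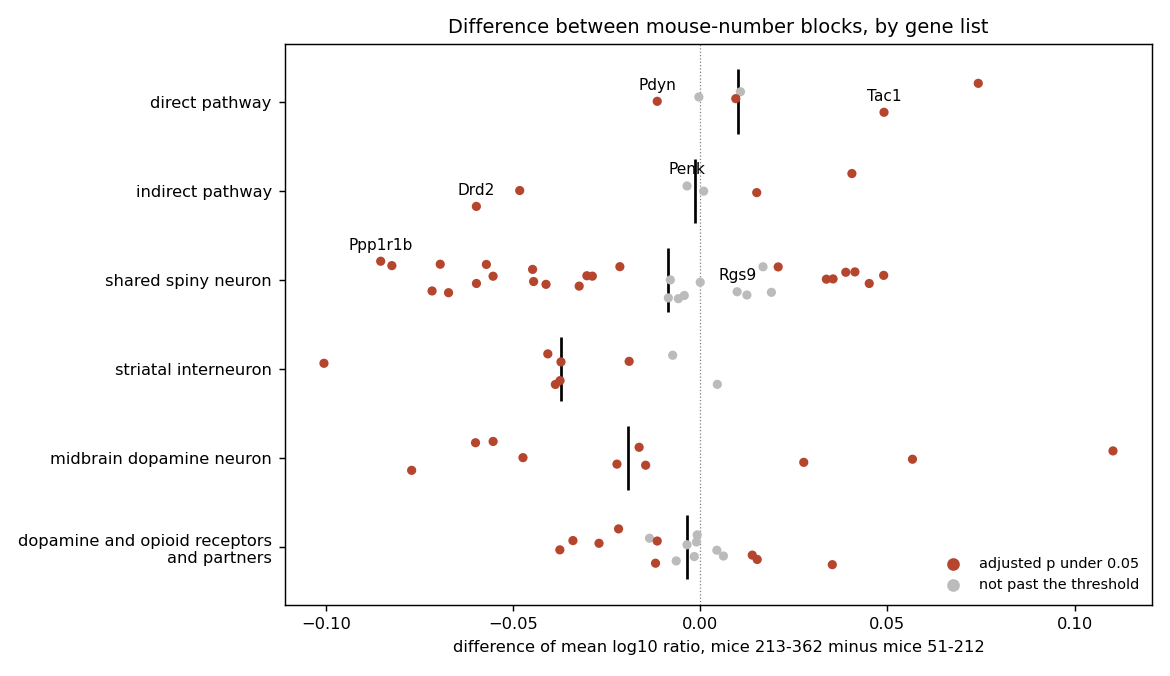
Difference of the mean log10 ratio, mice 213 to 362 minus mice 51 to 212 (horizontal axis), for each measured gene of 6 lists, 1 point a gene, coloured by the limma test; vertical bars are list medians. Every list but the interneuron list has genes that passed on both sides of 0, and its 6 called genes fell.

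Markers of other cells and regions moved with the blocks too. All 6 called genes of 8 striatal interneuron genes fell, with a median of -0.0373, led by Sst (somatostatin) at -0.101, Pvalb (parvalbumin) at -0.0407, Nos1 (nitric oxide synthase) at -0.0387 and Npy (neuropeptide Y) at -0.0375. Of 18 immediate early genes, which are induced by neuronal activity, 0 rose, 15 fell and 3 did not pass, with a median of -0.0314 and falls by 0.177 in Egr2, 0.152 in Arc, 0.152 in Egr4 and 0.125 in Egr1. Counts of risen and fallen genes were 2 and 7 of 11 for cortex and hippocampus, 2 and 6 of 9 for thalamus, 2 and 5 of 8 for cerebellum, 2 and 3 of 8 for olfactory bulb, 1 and 6 of 8 for hypothalamus and 1 and 1 of 6 for anterior pituitary. They were 4 and 2 of 8 for general neuronal genes, 1 and 6 of 8 for oligodendrocytes, 1 and 4 of 6 for microglia and 1 and 3 of 6 for astrocytes. In all, 13 of 17 lists had a median below 0, where the median over all 10835 named genes was -0.00315. With each array centred on its median, 12 of 17 lists had one below 0. Their part in the differences of Drd2, Ppp1r1b and Tac1 was not tested.

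Across mice, Pearson correlations were computed for all 15 pairs of the 6 genes, with two-sided permutation p-values adjusted over the pairs. The 5 pairs with Ppp1r1b are given only within sets or blocks, or with set means removed, because its values clustered over all mice. Of the other 10 pairs, 7 passed over all 292 mice, 6 of them positive and 1 negative. These permutations ran across the sets, so shifts between sets enter their p-values. With set means removed and mice permuted within sets, 8 of the 10 passed, 6 positive and 2 negative. Drift with mouse number within sets, and sex among mice 213 to 362, can still enter these p-values. No share of passing pairs among other genes was computed for these or later counts. By r with Drd2 and set means removed, Rgs9 ranked 1015, Penk 3729 and Pdyn 3887 among 10834 genes. By r with Penk, Tac1 ranked 24, while by r with Tac1, Penk ranked 338. Tac1 and Penk, precursors from opposite pathways, correlated positively (r = 0.274, permutation p = 1e-05, the smallest that the permutations can give, adjusted p = 2.5e-05; rho = 0.257, p = 2e-05). Within the sets r was 0.398 in mice 213 to 362, 0.262 in the mice spelled Female and 0.406 in those spelled female, and it passed in all of them. Without the 2 mice farthest from the median of Tac1 it was 0.276.

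Tac1 and Drd2 ran against each other (r = -0.48, permutation p = 1e-05, adjusted p = 2.5e-05; rho = -0.477, p = 1e-05; r = -0.475 without the 2 farthest mice). Within the sets r was nearer to 0, at -0.296 in mice 213 to 362, -0.355 in the mice spelled Female and -0.264 in those spelled female, and passed in each. Drd2 and Rgs9 correlated at r = 0.262 (permutation p = 1e-05, adjusted p = 2.5e-05; rho = 0.245, p = 4e-05; r = 0.27 without the 2 farthest mice), with 0.473 in mice 213 to 362, 0.273 in the mice spelled Female and 0.247 in those spelled female, where it missed the threshold (permutation, adjusted p = 0.0624). Pdyn and Penk, the pair of opioid precursors, correlated at 0.25 (permutation, adjusted p = 8.57e-05; rho = 0.215, p = 2.3e-04; r = 0.27 without the 2 farthest mice), with 0.133, 0.371 and 0.336 in the same order of sets; it missed the threshold in mice 213 to 362.

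Weaker relations passed over all mice but not in every set. Pdyn and Drd2 had r = 0.212 (permutation, adjusted p = 6e-04) and sets of 0.2, 0.151 and -0.0128 in that order. Drd2 and Penk, both of the indirect pathway, had r = 0.151 (permutation, adjusted p = 0.0153) and passed only in mice 213 to 362 (r = 0.197, adjusted p = 0.0331), against 0.114 and 0.0748 in the mice spelled Female and female. Penk and Rgs9 had r = 0.137 (permutation, adjusted p = 0.0262) and passed in no set alone. Tac1 and Pdyn, both of the direct pathway, did not pass over all mice (r = -0.0198, permutation, adjusted p = 0.737), and r was 0.0475, 0.0411 and 0.29 in the same order of sets. It passed in the mice spelled female (permutation, adjusted p = 0.0305). Tac1 and Rgs9 did not pass over all mice (r = -0.0892, permutation, adjusted p = 0.149) but passed once the set means were removed (r = -0.161, adjusted p = 0.0108). Within the sets their r was -0.222 in mice 213 to 362 (permutation, adjusted p = 0.0174), -0.211 in the mice spelled Female (adjusted p = 0.123) and -0.00613 in those spelled female. Pdyn and Rgs9 did not pass over all mice (r = 0.0247, permutation, adjusted p = 0.721), and r was 0.0119 in mice 213 to 362, 0.263 in the mice spelled Female, where it passed (adjusted p = 0.0467), and -0.106 in those spelled female. Neither pair from the same pathway had as high an r over all mice as Tac1 and Penk from opposite pathways, a difference that was not tested.

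Ppp1r1b went with Drd2 in each set, at r = 0.599 in mice 213 to 362 (permutation, adjusted p = 3e-05), 0.569 in the mice spelled Female (adjusted p = 1.5e-04) and 0.433 in those spelled female (adjusted p = 0.0013). With Rgs9 it correlated at 0.668 in mice 213 to 362 (permutation, adjusted p = 3e-05), at 0.186 in the mice spelled Female and at 0.118 in those spelled female. In the upper block 3 mice stood apart in both genes, with Rgs9 ratios of 0.137, 0.156 and 0.176 and Ppp1r1b ratios of 0.0563, 0.056 and 0.063. Without them r was 0.564 over 138 mice. With Pdyn, Ppp1r1b had r = 0.152 in mice 213 to 362 (permutation, adjusted p = 0.108), 0.315 in the mice spelled Female (adjusted p = 0.0193) and 0.389 in those spelled female (adjusted p = 0.00195). With Penk it passed only in the mice spelled female (r = 0.41, permutation, adjusted p = 0.0013), against -0.043 in mice 213 to 362 and 0.0555 in the mice spelled Female. With Tac1 it passed only in mice 213 to 362 (r = -0.382, permutation, adjusted p = 3e-05), against -0.0657 in the mice spelled Female and 0.0736 in those spelled female.

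For each of the 15 pairs the block difference in r was tested by permuting the block labels. It passed for Rgs9 and Ppp1r1b, with 0.668 in mice 213 to 362 against 0.159 in mice 51 to 212 (difference 0.509, permutation, adjusted p = 1.5e-04). It also passed for Tac1 and Ppp1r1b, with -0.382 in mice 213 to 362 against -0.00981 in mice 51 to 212 (difference -0.372, permutation, adjusted p = 0.0241). The second difference did not pass on ranks (-0.221, permutation, adjusted p = 0.203). Neither passed after the array-wide components described below were removed. The remaining 13 pairs did not pass, and the nearest was Penk and Ppp1r1b, with -0.043 in mice 213 to 362 against 0.241 in mice 51 to 212 (permutation, adjusted p = 0.0707).

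**Figure D4:**
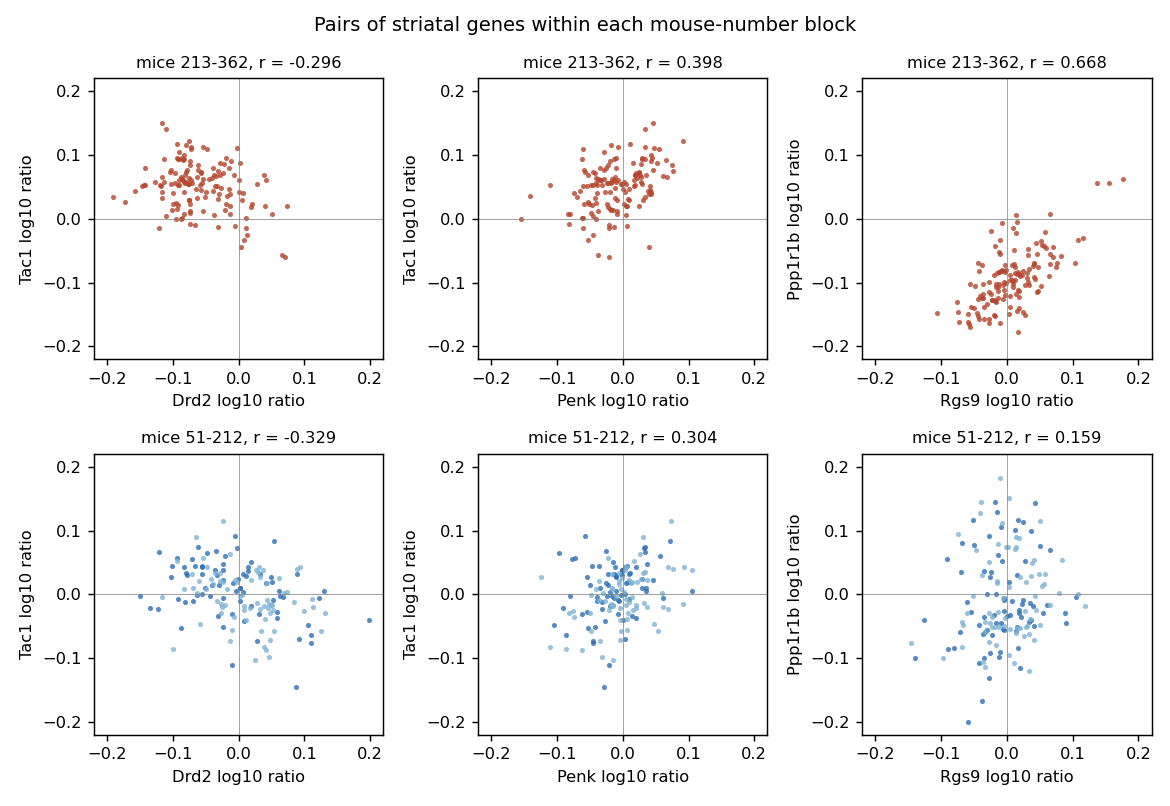
Log10 ratios of pairs of genes, 1 point a mouse, in mice 213 to 362 (upper row) and mice 51 to 212 (lower row; dark points spelled Female, light points spelled female). In the upper and lower row r is -0.296 and -0.329 for Tac1 and Drd2, 0.398 and 0.304 for Tac1 and Penk, and 0.668 and 0.159 for Rgs9 and Ppp1r1b.

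The 6 genes differed in how much of their variation they shared with the rest of the array. After the set means were removed, the first 3 principal components over all probes held 27.2% of the variance, and the first 10 held 45.1%. The first 3 held 74.3% of the variance of Ppp1r1b, a larger share than for 95.8% of probes, and 32.5% of that of Drd2, 20.6% of Pdyn, 17.5% of Tac1, 9.93% of Rgs9 and 8.61% of Penk. The median probe had 31.4%, so Penk, Rgs9, Tac1 and Pdyn lay below it and Drd2 close to it. In the first 10 components the shares were 79.5% for Ppp1r1b, 55.1% for Drd2, 46.7% for Rgs9, 46.2% for Tac1, 29.1% for Pdyn and 20.8% for Penk, against 51% for the median probe. Without the first 10 components, 7 of the 10 pairs without Ppp1r1b passed, and all 7 were positive, again with no share over other gene pairs computed. Tac1 and Penk then had r = 0.525 (permutation, adjusted p = 2.5e-05), Tac1 and Rgs9 had 0.373, and Tac1 and Drd2 had 0.0536 (permutation, adjusted p = 0.386). The same step gave 0.45 for Rgs9 and Ppp1r1b, 0.38 for Tac1 and Ppp1r1b, 0.307 for Penk and Ppp1r1b, 0.188 for Drd2 and Ppp1r1b and 0.153 for Pdyn and Ppp1r1b. The removal of components was added after the data were seen.

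**Figure D5:**
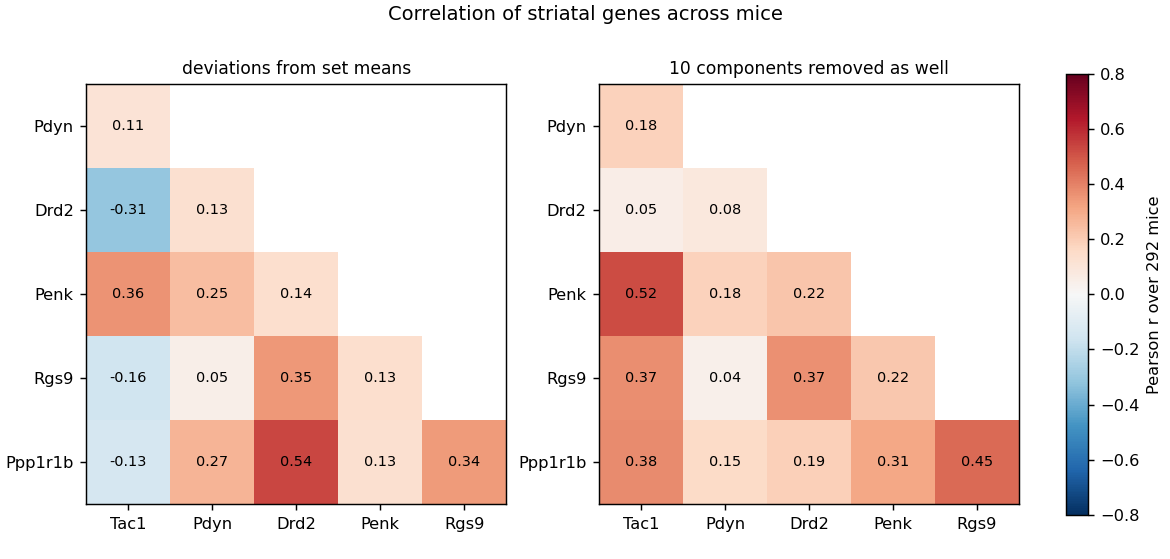
Pearson r over 292 mice for each pair of the 6 genes, for deviations from the set means and after 10 array-wide components were removed as well; red is positive and blue is negative. Tac1 against Drd2 changes from -0.307 to 0.0536, and all pairs are above 0 in the right panel.

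The genes most like each member, by r of deviations from the set means over 292 mice among 10835 named genes, were mostly no striatal markers. For Tac1 they were Hmgn3 (0.63), Fkbp3 (0.616), Tyw5 (0.613), Kifap3 (0.606) and Vps4b (0.602). For Pdyn they were Sugp1 (0.557), Tuba3a (0.491), Tuba3b (0.476), Sult4a1 (0.471) and Wbp1 (0.466), of which Tuba3a and Tuba3b are near copies whose probes may share signal. For Drd2 they were Zfp428 (0.657), Dlgap3 (0.651), Lamtor4 (0.64), Mypop (0.639) and Thop1 (0.637). Dlgap3 encodes a postsynaptic scaffold protein abundant in the striatum. For Penk they were Tmem176b (0.459), Smap1 (0.453), Ift22 (0.41), Tor4a (0.407) and Fxyd1 (0.4), and Tac1 ranked 24 among 10834. In the list of Tac1, Penk ranked 338. For Rgs9 they were Ipo9 (0.634), Fkbpl (0.589), Eps15l1 (0.585), Recql5 (0.583) and Slit1 (0.575). For Ppp1r1b they were Fkbp8 (0.864), C1qtnf4 (0.848), Miga2 (0.847), Snx21 (0.839) and Nrtn (0.834). These arrays share their pool and their array-wide components, so r is a description and carries no p.

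With 10 components removed, the neighbours changed. Tac1 and Penk were each other's nearest gene among 10834. Next to Tac1 stood Cartpt (0.511), a peptide precursor found in the accumbens and hypothalamus, then Prok2 (0.486), Sst (0.48), Arhgap6 (0.458) and Ptpro (0.435). Penk was next most like Gnal (0.411), the stimulatory G protein alpha subunit of the striatum, and Cartpt (0.406). Ppp1r1b kept Fkbp8 in first place (0.605), followed by Syp (0.499), a synaptic vesicle protein, and Pde1b (0.496), a phosphodiesterase enriched in spiny neurons. Rgs9 ranked 9 for Ppp1r1b, and Ppp1r1b ranked 8 for Rgs9. Rgs9 stood nearest to Cdh4 (0.538), Kcnk2 (0.511), Camkv (0.51), Nrgn (0.51) and Sorcs2 (0.494), and Drd2 nearest to Acp2 (0.428), with Rgs9 at rank 10. Pdyn stayed nearest to Sugp1 (0.406).

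The 6 genes were also set against the list of shared spiny neuron genes, leaving out the gene itself. With set means removed, r was above 0 with 23 of 31 list genes for Drd2, 22 of 30 for Ppp1r1b, 22 of 30 for Rgs9, 21 of 31 for Penk, 21 of 31 for Pdyn and 12 of 31 for Tac1. Over all named genes the shares above 0 were 58%, 57.3%, 52.8%, 48.7%, 56.4% and 44.7% in that order. With 10 components removed they were 27 of 31 for Penk, 26 of 31 for Tac1, 26 of 30 for Ppp1r1b, 23 of 30 for Rgs9, 23 of 31 for Drd2 and 22 of 31 for Pdyn. Over all named genes the shares were then 50.9%, 47.7%, 49%, 50%, 51.6% and 49.8% in that order. The median r with the list was 0.187 for Tac1, 0.179 for Rgs9, 0.144 for Drd2, 0.134 for Penk, 0.0806 for Ppp1r1b and 0.0262 for Pdyn. Tac1 was above 0 with the fewest list genes of the 6 before the components were removed and with 26 of 31 after.

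Lists of other cells went with some of these genes as much or more. With set means removed, Ppp1r1b had a median r of 0.439 with the striatal interneuron genes (above 0 with 8 of 8), 0.331 with microglia and 0.318 with hypothalamus, against 0.184 with the shared spiny neuron genes. Drd2 had a median r of 0.375 with microglia (5 of 6) and 0.317 with the interneuron genes (8 of 8), against 0.201 with the spiny neuron genes. With 10 components removed, the spiny neuron list had the highest median r of the 17 lists for Tac1 and Rgs9, and not for the other 4 genes. Tac1 then had 0.174 with hypothalamus (8 of 8), close to its 0.187 with the spiny neuron genes. Ppp1r1b had 0.193 with the interneuron genes, and Penk and Drd2 had 0.147 and 0.157 with microglia, each above the same gene's median with the spiny neuron genes. None of these differences between lists was tested.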

How the data were processed

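The deposited values are log10 ratios, 1 per probe and array; that they are log10 and mouse over pool was inferred from the values, and the authors' image analysis and normalization were not given in the sources used. Per the labels' protocols, column-purified total RNA was amplified; mouse RNA carried Cy3 and pool RNA Cy5 throughout, with no dye swap. Signal over background is unknown, so the number of arrays limits the precision.

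Of 23574 probes, 25 missing on over 5% of arrays were left out, and 690 values equalled the table's limits, -2 or 2. Probes took present gene symbols by gene identifier (RefSeq, GRCm38.p6); of several probes for a gene, the one with the largest SD was used. Of the 8 genes in the rule, 6 had a probe, each without missing values.

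Block, spelling and number effects were fitted with limma 3.58.1 (R 4.3.3), adjusted by Benjamini-Hochberg over 23549 probes. Tested on 23549 simulated probes of the block comparison, this recovered 190 of 200 changed by 0.05 in log10, with 9 wrong calls among the rest. The simulated noise was independent between probes and held no array-wide components, so it does not give the rate of wrong calls in these arrays. Clusters were fitted with mclust 6.1.1. Correlations used 100000 permutations (numpy 2.4.6, scipy 1.17.1, pandas 2.3.3, Python 3.11.15). Each mouse is 1 animal with 1 array. The rule named all probes of the 8 genes, the 5 genes most like each, and up to 4 genes per list with the largest block difference. Alternatives were array centring, scaling and weights, missing values, sets, ranks and components. The members, lists and tests were chosen with earlier results of these data known.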

Additional observations from a re-analysis of the deposited data

Results flagged for a closer look

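Rgs9 and Ppp1r1b correlated differently in the number blocks, by the test of the difference itself. Their r was 0.668 in mice 213 to 362 and 0.159 in mice 51 to 212, a difference of 0.509 (permutation, adjusted p = 1.5e-04 over 15 pairs). It was 0.412 on ranks and 0.516 without the 3 arrays of wide spread, and both passed. After the first 10 array-wide components were removed, r was 0.468 in mice 213 to 362 and 0.448 in mice 51 to 212.

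Tac1 and Ppp1r1b also correlated differently, at -0.382 in mice 213 to 362 and -0.00981 in mice 51 to 212, a difference of -0.372 (permutation, adjusted p = 0.0241). After the first 10 components were removed, r was 0.276 in mice 213 to 362 and 0.437 in mice 51 to 212, and the difference did not pass (permutation, adjusted p = 0.665).

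The slope of Penk over mouse number differed between the blocks by 0.0441 per 100 numbers (limma, adjusted p = 3.87e-04). The slope of Rgs9 differed by 0.0365 per 100 numbers (limma, adjusted p = 0.00601). Of all probes, 40.6% were called in the same test.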

How the results depend on the processing

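The number of probes called between blocks ran from 14075 to 16571 over all alternatives. Tac1, Pdyn, Drd2 and Ppp1r1b kept their direction and passed in each, while Penk passed in none. Some of these versions could not change the differences of the 6 genes, which stayed identical. They were the fit without the filter, with values at the limits missing, and with mouse number within sets as a covariate. The spelling comparison called 252 probes and 390 with array weights, and none of the 6 genes in any version. The Rgs9 slope over mouse number was -7.64e-05 in the mice spelled female alone. Of all 15 pairs, 9 passed in mice 213 to 362 alone, 7 in the mice spelled Female alone and 7 in those spelled female alone, where fewer mice enter. Against all mice, signs turned for Tac1 and Pdyn in each set and with set means or components removed (r = 0.0411 to 0.29; 0.29 in the mice spelled female, 0.182 with 10 components removed), and in the mice spelled female for Pdyn and Drd2 (-0.0128) and Pdyn and Rgs9 (-0.106). With 10 components removed they turned for Tac1 and Drd2 (0.0536) and Tac1 and Rgs9 (0.373). Tac1 and Ppp1r1b, negative in mice 213 to 362, had 0.0736 in the mice spelled female and 0.115 and 0.38 with 3 and 10 components removed. Penk and Ppp1r1b had -0.043 in mice 213 to 362 and was above 0 in the other sets. The cause of these was not tested. Of the 2 block differences in r, 1 passed on ranks and 0 with 3 or 10 components removed (permutation; 3 and 0 of 15 pairs at an unadjusted p under 0.05), and that of Rgs9 and Ppp1r1b was -0.102 with 3 removed. Direct minus indirect kept its sign in all alternatives, from 0.0202 without Tac1 to 0.0808 without Pdyn. The mean over all probes of a gene gave the same values, since each gene had 1 probe. No paired analysis was possible because the blocks share no mouse numbers.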

Other observations

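Across 8607 genes with a promoter entry, the block difference (mice 213 to 362 minus mice 51 to 212) ran against the GC content of the 250 bases before the start site, averaged over a gene's entries, with a Spearman rho of -0.162. Genes are not independent replicates, so this carries no p. With the genes divided by GC into 4 equal bins, the median difference was 0.00294 in the bin of lowest GC (median 45.2%), -0.00258 and -0.00639 in the middle bins and -0.00891 in the bin of highest GC (median 70.4%). The 4 striatal genes with an entry did not follow one order: Drd2, with 68.8% GC, fell by 0.0598, Rgs9, with 59.6%, differed by 0.00985 and did not pass, Tac1, with 51.2%, rose by 0.0491, and Pdyn, with entries of 57.2% and 44%, fell by 0.0115.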
